A study of Homo sapiens with 2 samples.

Results

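TGFB1, TGFB2, TGFB3, INHBA, GDF15, TGFBR1, TGFBR2, SMAD3, SMAD7 and FST, 10 of 19974 protein-coding genes, were followed here through peak lists of JUNB, a DNA-binding subunit of the transcription factor AP-1. The genes were chosen by name for their place in TGF-beta and activin signalling, and every listed peak with its summit within 50 kb of a gene's span in the RefSeq annotation of GRCh38 was taken. This gave 46 of 32550 untreated peaks and 32 of 25739 etoposide peaks on chromosomes 1 to 22 and X. The peaks were measured by CUT&RUN, in which an antibody brings a nuclease to its target on chromatin and the released DNA is sequenced. The cells were IMR-90, human lung fibroblasts. There were 2 libraries, 1 from cells given no treatment and 1 from cells treated with etoposide (labelled ETO), a topoisomerase II inhibitor that breaks DNA and is used to bring cultured cells into senescence. Both used the same JUNB antibody, and dose and time of the treatment are not given in the sources used here. With 1 library per condition no difference between them could be set against a spread between cultures, so the treatment was not tested and every comparison below describes these 2 libraries. Peak lists do not show whether IMR-90 markers were present. They cannot tell fewer bound cells from less JUNB per cell, nor either of these from lower sequencing depth.

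TGF-beta ligands bind the receptor TGFBR2, which recruits and activates TGFBR1, and the active receptor phosphorylates SMAD2 and SMAD3. These join SMAD4, enter the nucleus and act on target genes together with other DNA-binding proteins, AP-1 among them. Activin A, a dimer of the protein made from INHBA, signals to SMAD2 and SMAD3 through its own receptors and is neutralised by follistatin, the product of FST. In fibroblasts the pathway is known for driving matrix production, and several of its ligands are secreted by senescent cells.

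JUNB peaks were most numerous around SMAD3, which had 16 untreated and 9 etoposide peaks, and around TGFBR2, which had 8 and 4. All 10 genes had an untreated peak within 50 kb, and 9 had an etoposide peak, the exception being TGFB3. In this window 72% of all protein-coding genes held an untreated peak and 62.6% held one from etoposide. Peaks of both libraries were found at 9 genes (58.6% of all genes), untreated peaks alone at TGFB3 (13.5%), and etoposide peaks alone at 0 (4.05%). A peak was called shared when it overlapped a peak of the other list by at least 1 bp, and 8 of the 10 genes had a shared peak (51.1% of all genes). Untreated peaks outnumbered etoposide peaks at 5 genes (45.6% of all genes), the reverse held at TGFBR1 alone (12.9%), and the numbers were equal at 4. The share of the 10 genes with more untreated peaks was thus near that of all genes.

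**Figure D1:**
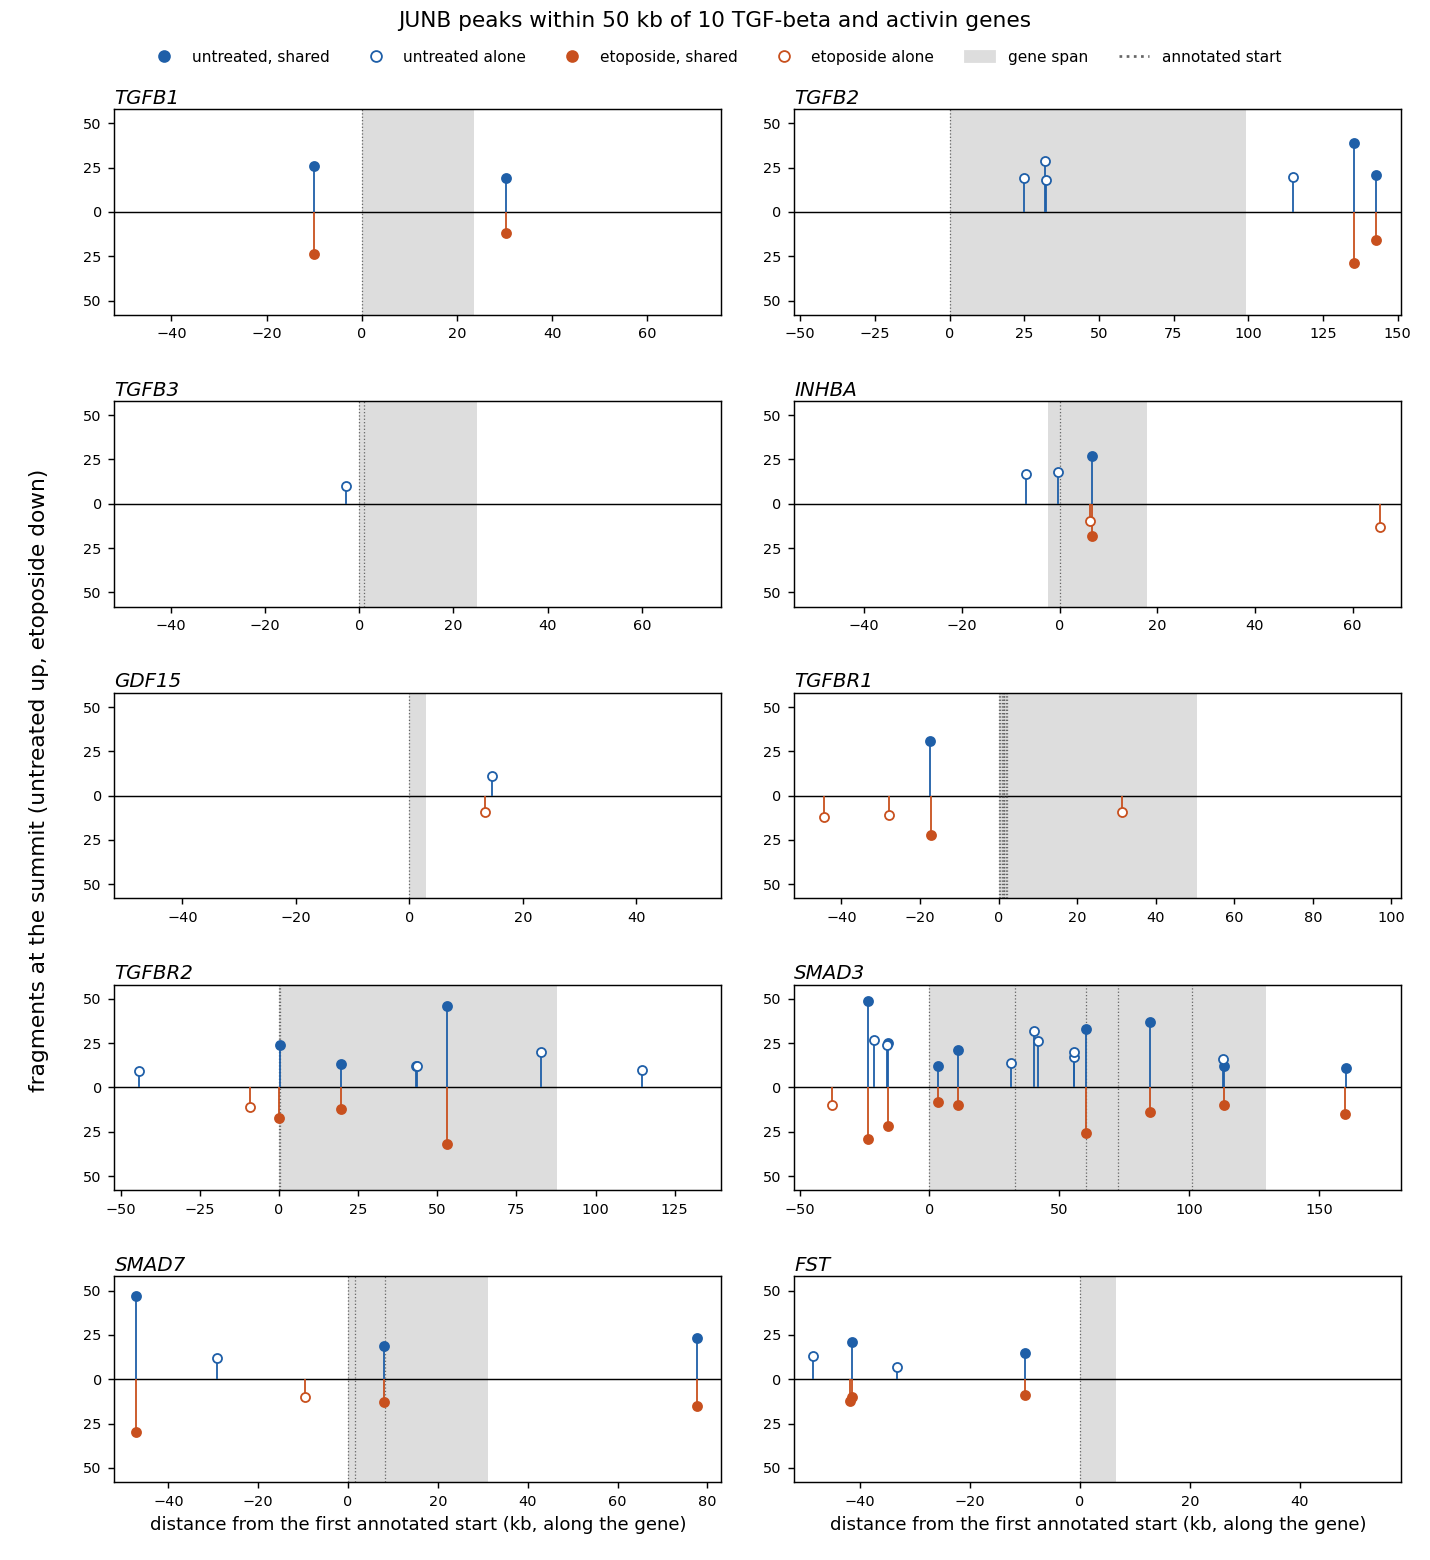
JUNB peaks by distance from each gene's first annotated start in kb (horizontal, read along the gene) and by fragments at the summit (vertical, untreated upward and etoposide downward, 1 library each). Filled points are shared peaks, open points are peaks of 1 list alone, grey is the gene span and dotted lines are annotated starts; SMAD3 has the most peaks, and TGFB2 has 3 untreated peaks and 0 etoposide peaks inside its span.

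Peaks at gene starts came first, since these can be set against a known sequence. RefSeq start positions were available for all 10 genes. At 4 genes, TGFBR2, SMAD3, SMAD7 and INHBA, an untreated summit lay within 1 kb of an annotated start, and at 3 of them, without INHBA, an etoposide summit did. Of 15812 protein-coding genes with a start in the table, 17.5% had an untreated and 6.61% an etoposide summit that close. The 10 genes have between 1 and 8 annotated starts each, and a gene with several starts has more chances of a nearby summit. TGFBR2 has 2 starts in the table, at 30606356 and 30606601. The peak of each library there covered the first start and ended short of the second. The etoposide summit was nearest to the first start and the untreated summit nearest to the second. SMAD3 and SMAD7 had their peaks at internal starts. INHBA has 1 start in the table, at 41703090, which also lies inside the gene, since its span begins upstream at 41705406. The 250 bases before 1 start of each gene are shown (RefSeq, GRCh38.p14, 5′ to 3′ on the strand of the gene), because JUNB peaks covered them in whole or in part. The window of the second TGFBR2 start, chromosome 3, 30606351 to 30606600, was also covered in part by both peaks. It is not printed because it lies past the first start, in what may be transcribed leader. All 5 windows were searched on both strands for the AP-1 site TGAGTCA, for the cyclic AMP response element TGACGTCA and for the palindromic SMAD box GTCTAGAC. No matches overlap, and capitals mark a match.
TGFBR2, first start, chr3:30606106-30606355, plus strand: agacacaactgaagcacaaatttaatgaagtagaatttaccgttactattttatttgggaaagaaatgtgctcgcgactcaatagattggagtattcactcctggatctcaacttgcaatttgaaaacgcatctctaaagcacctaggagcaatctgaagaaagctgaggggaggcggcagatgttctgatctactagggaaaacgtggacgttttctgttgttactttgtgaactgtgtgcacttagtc
SMAD3, internal start, chr15:67125492-67125741, plus strand: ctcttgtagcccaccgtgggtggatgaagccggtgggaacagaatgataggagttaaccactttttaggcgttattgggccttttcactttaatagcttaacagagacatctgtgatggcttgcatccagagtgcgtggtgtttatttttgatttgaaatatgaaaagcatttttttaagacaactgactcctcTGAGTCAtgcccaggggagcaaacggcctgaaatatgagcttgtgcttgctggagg
SMAD7, internal start, chr18:48942808-48943057, minus strand: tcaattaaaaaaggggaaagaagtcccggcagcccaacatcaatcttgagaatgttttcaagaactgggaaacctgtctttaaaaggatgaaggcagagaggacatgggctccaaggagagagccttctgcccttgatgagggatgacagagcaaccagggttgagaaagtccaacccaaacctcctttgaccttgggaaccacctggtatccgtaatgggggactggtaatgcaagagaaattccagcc
INHBA, chr7:41703091-41703340, minus strand: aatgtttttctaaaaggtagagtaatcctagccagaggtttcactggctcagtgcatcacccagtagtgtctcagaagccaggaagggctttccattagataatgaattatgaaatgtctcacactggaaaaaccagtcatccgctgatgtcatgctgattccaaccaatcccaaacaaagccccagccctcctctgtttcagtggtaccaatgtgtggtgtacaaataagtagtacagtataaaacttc
The SMAD3 window holds TGAGTCA with its first base 56 bases before the start, and it was the only match to the 3 motifs in the 5 windows. Of 34961 such windows over all annotated starts, 4.17% hold the AP-1 site, 1.65% the cyclic AMP response element and 0.183% the SMAD box. A match describes letters and is not evidence of binding at that base. The summits of the SMAD3 and INHBA peaks and of the untreated TGFBR2 peak lay outside the windows shown. The INHBA peak, both SMAD7 peaks and the etoposide TGFBR2 peak each covered only part of the window shown. Peak sequence outside these windows was not read, so a window without a match does not show a peak without a motif.

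The peaks near these starts differed in strength. Strength is given in fragments, the count of sequenced pieces piled up at the summit, which was solved from the fold and p of each peak. Its exact Poisson 95% interval covers counting error only. At the internal start of SMAD3 there were 33 fragments in the untreated library (22.7 to 46.3), with the summit 112 bp past the start, and 26 in the etoposide library (17.0 to 38.1), with the summit 127 bp past it. Both peaks, chromosome 15, 67125422 to 67125994 and 67125473 to 67125965, cover the AP-1 site. At TGFBR2 the untreated peak (chromosome 3, 30606094 to 30606582) had 24 fragments and the etoposide peak (30606113 to 30606561) had 17. The untreated summit lay 172 bp past the first start and 73 bp before the second, and the etoposide summit lay 81 bp before the first start. The 2 summits were thus 253 bp apart within nearly the same stretch. The span of LOC105377015 meets that of TGFBR2 there, and the peak cannot be given to either gene. At the internal start of SMAD7 the untreated peak (chromosome 18, 48942757 to 48943051) had 19 fragments and the etoposide peak (48942884 to 48943078) had 13, with summits 97 bp and 151 bp before the start. The INHBA peak (chromosome 7, 41703274 to 41703521) was listed for the untreated library alone, with 18 fragments on a local background of 2.95 and its summit 299 bp before the start. It ranked 23506 of 32550 by -log10 q, and of the peaks within 500 ranks of it 35.2% were shared, so a missing counterpart was common at this strength.

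The ligand genes as a group had 13 untreated peaks, 5 of them shared, and 8 etoposide peaks, 5 of them shared. TGFB1 (chromosome 19, 41330323 to 41353922), the main TGF-beta isoform of most tissues, had both of its places shared and none inside its span. Downstream, at 41323272 to 41323673, there were 19 untreated and 12 etoposide fragments, within the span of CCDC97. Upstream, at 41363928 to 41364178, there were 26 and 24, within the spans of B9D2 and TMEM91. The upstream place was nearly as high in the etoposide as in the untreated library, a ratio of 0.923, and ranked 1247 of the etoposide list.

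TGFB2 (chromosome 1, 218345336 to 218444619) had the largest number of untreated peaks among the ligands, and they fell into 2 sets. Inside the gene, untreated peaks stood at 218370088 to 218370548 with 19 fragments, at 218377124 to 218377426 with 29 and at 218377607 to 218377818 with 18, and a further one lay 15.7 kb past the gene with 20. These 4 had no counterpart in the etoposide list. The peak with 29 fragments ranked 4837, and 80.3% of untreated peaks of like rank had a counterpart. For the other 3 that share was between 34.3% and 59.8%. Farther downstream, 36.0 kb and 43.5 kb past the gene, stood the shared places, with 39 untreated and 29 etoposide fragments at the nearer and 21 and 16 at the farther. All 6 lay closer to TGFB2 than to any other protein-coding gene.

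TGFB3 (chromosome 14, 75958097 to 75983011), the third TGF-beta isoform, had 1 peak, in the untreated library, 2.85 kb upstream of the gene with 10 fragments and within the span of IFT43. Its rank of 28140 put it among the weaker peaks of the list. INHBA (chromosome 7, 41685114 to 41705406), the activin subunit gene, had 3 peaks in each list and 1 place in common, inside the gene at 41696237 to 41696573, with 27 untreated and 18 etoposide fragments and summits 11 bp apart. Besides the peak at its start, the untreated library had one 4.56 kb from the gene with 17 fragments. The etoposide library had one inside the gene at 41696686 to 41697015 with 10 fragments, at rank 25355 of 25739, and one 47.7 kb downstream with 13 fragments on a local background of 0.605. Of etoposide peaks with a rank like that of the last, 79.1% were shared. GDF15 (chromosome 19, 18386158 to 18389176), a distant member of the family that is secreted by stressed cells, had 1 peak in each list and none shared. The untreated one had 11 fragments, 11.6 kb downstream and nearest to SSBP4, and the etoposide one had 9 fragments, 10.3 kb downstream and nearest to LRRC25. No peak of either list lay inside GDF15.

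The receptor genes differed from each other. TGFBR2 (chromosome 3, 30606356 to 30694142), which binds the ligand, had its strongest peak inside the gene at 30658617 to 30659916, with 46 untreated fragments (33.7 to 61.4) and 32 etoposide fragments (21.9 to 45.2), ranks 1518 and 878 of their lists. The intervals overlap. A shared place at 30625801 to 30626002 had 13 and 12 fragments. A further 5 untreated peaks of TGFBR2 had no counterpart, with 9 to 20 fragments. The one with 20, at 30689042 to 30689295, ranked 5599, where 79.0% of peaks were shared. The etoposide list had 1 peak of its own, 9.01 kb upstream with 11 fragments.

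TGFBR1 (chromosome 9, 99103647 to 99154192), the partner that passes the signal on, was the one gene of the 10 with more etoposide than untreated peaks, 4 against 1. The untreated peak lay 17.4 kb upstream, at 99086207 to 99086658, with 31 fragments, and its etoposide counterpart had 22. The 3 etoposide peaks without counterpart had 12, 11 and 9 fragments, and the one with 9 was inside TGFBR1. The other two, like the shared place, lay nearest to COL15A1, a collagen gene upstream. Of the etoposide peaks with ranks like these 3, between 53.1% and 61.3% were shared.

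SMAD3 (chromosome 15, 67065602 to 67195169), the transducer of both TGF-beta and activin signals, had 15 of its 16 untreated and 8 of its 9 etoposide peaks nearest to itself. Only 103 protein-coding genes (0.516%), SMAD3 among them, had at least 16 untreated peaks in their window and 352 (1.76%) had at least 9 etoposide peaks. SMAD3 also has the widest window of the 10 genes, 229.6 kb, but its density of 6.97 untreated and 3.92 etoposide peaks per 100 kb was the highest of the 10 as well. Of its untreated peaks 8 were shared and 8 were not, and of its etoposide peaks 8 were shared and 1 was not.

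The strongest SMAD3 peak stood 23.7 kb upstream, at 67041547 to 67042112, with 49 untreated fragments (36.3 to 64.8) and 29 etoposide fragments (19.4 to 41.6). It ranked 804 and 1472. Next upstream, at 67049357 to 67050127, were 25 and 22 fragments. Inside the gene the shared places had 12 and 8, 21 and 10, 33 and 26, 37 and 14, and 12 and 10 fragments in order along the gene. The place with 37 and 14, at 67150156 to 67150527, was the one shared place of the 10 genes at which the intervals of the libraries did not overlap (26.1 to 51.0 and 7.65 to 23.5). Its ratio of 0.378 was reached or undercut by 1.60% of all shared places. At the last place, 30.5 kb downstream and nearest to AAGAB, the etoposide library had more fragments, 15 against 11.

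Untreated SMAD3 peaks without counterpart had 14 to 32 fragments. The strongest, at 67105604 to 67105833, had 32 on a local background of 4.99, and 65.4% of peaks of its rank were shared. The background of the peak caller was high along this locus in the untreated library, with a median of 3.50 fragments over the SMAD3 peaks against 1.27 over the whole list. In the etoposide library it was 1.46 against 0.907. A raised background was not particular to SMAD3. Untreated medians were 2.83 at INHBA and 2.46 at TGFB2, but below the whole list at TGFB3, TGFBR2, GDF15 and FST. In the etoposide library TGFB2 with 2.54, INHBA with 1.70 and SMAD7 with 1.58 exceeded SMAD3. Over the peaks of the 10 genes without SMAD3 the medians were 1.82 untreated and 1.08 etoposide. The part of the background in the number of listed peaks was not tested. The 3 protein-coding genes with numbers of untreated-alone, shared and etoposide-alone peaks most like SMAD3 (8, 8 and 1) were CAP2 with the same numbers, PDK1 with 7, 8 and 1, and DCLK2 with 8, 8 and 0. Likeness was the summed difference of the 3 numbers, over 2 libraries.

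The inhibitor genes had 8 untreated peaks, 5 of them shared, and 7 etoposide peaks, 6 of them shared. SMAD7 (chromosome 18, 48919853 to 48950965), which blocks the receptors and is itself switched on by the pathway, had 3 shared places. The strongest was also the farthest upstream, 47.2 kb away at 48997817 to 48998534, with 47 untreated fragments (34.5 to 62.5) and 30 etoposide fragments (20.2 to 42.8), ranks 656 and 1127. It lay nearest to DYM. The place downstream, nearest to CTIF, had 23 and 15 fragments. Upstream of SMAD7, each list had a peak of its own at a different place, of 12 fragments for untreated and 10 for etoposide.

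FST (chromosome 5, 53480629 to 53487134), whose protein binds and neutralises activin, had all its peaks upstream of the gene. At 53438670 to 53439224, an untreated peak of 21 fragments overlapped 2 etoposide peaks of 12 and 10, which is why more etoposide than untreated peaks of FST count as shared. Nearer the gene, 9.97 kb upstream at 53470508 to 53470777, were 15 untreated and 9 etoposide fragments. The 2 untreated peaks of FST without counterpart had 13 and 7 fragments, and all 7 peaks lay closer to FST than to another protein-coding gene.

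**Figure D2:**
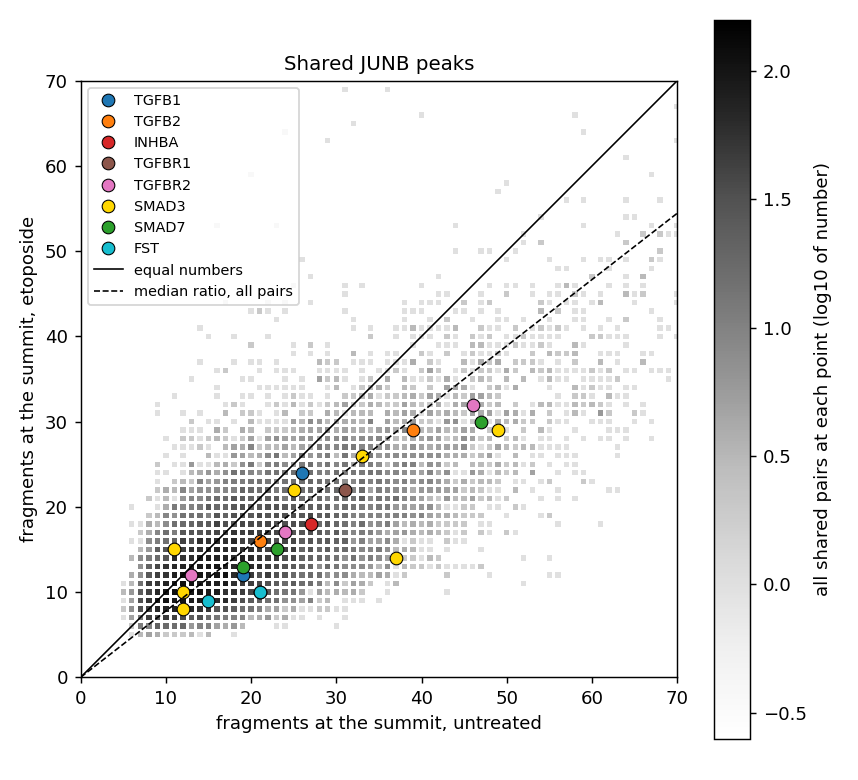
Fragments at the summit in the untreated library (horizontal) and the etoposide library (vertical) for shared peaks, with all pairs as grey squares shaded by their number and the 22 pairs near the 10 genes as coloured points; 134 of 16610 pairs lie beyond 70 fragments and are not drawn. Of the 22 points, 21 lie under the solid line of equal numbers and 1, a SMAD3 place, lies above it (a SMAD3 and an FST place coincide at 21 and 10), and the dashed line is the median ratio of all pairs, 0.778.

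Taking the shared places of the 10 genes as a set, the etoposide library had fewer fragments at 21 of 22 (73.4% of all shared places). The median ratio of etoposide to untreated fragments was 0.690 (quartiles 0.633 and 0.781), where all 16610 pairs had 0.778 (0.621 and 1). The 22 untreated peaks had a median of 23.5 fragments, against 19 over all shared untreated peaks. Among all pairs with as many untreated fragments as the middle of the set, 19 to 32.5, the median ratio was 0.700 and 87.3% had fewer in etoposide, against 0.684 and 11 of 11 for the genes' own pairs in that range. At equal strength the set was thus close to the rest of the genome. Fragments were not scaled for sequencing depth, which peak lists do not give. The local background was lower in the etoposide list too, at a median of 0.907 against 1.27 over all peaks. The part of depth in these ratios was not tested. The summits of a pair lay a median of 42.5 bp apart, and 41 bp over all pairs.

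**Figure D3:**
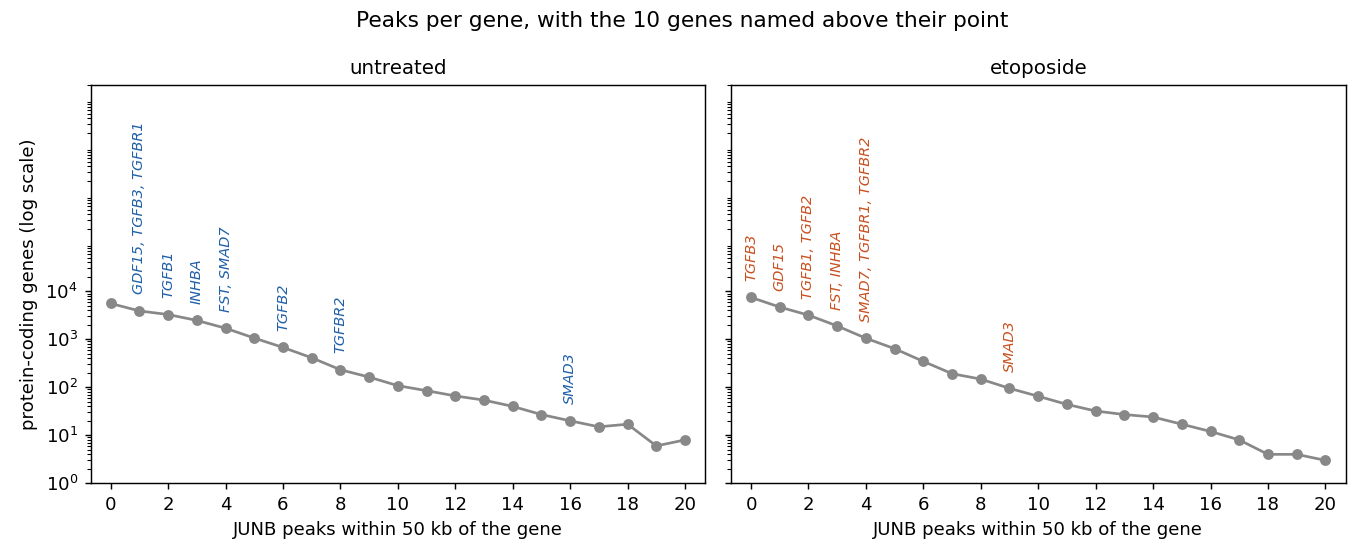
Number of protein-coding genes (vertical, log scale) by the number of JUNB peaks within 50 kb (horizontal, up to 20) in the untreated library (left) and the etoposide library (right), with the 10 genes named above the point they belong to. SMAD3 stands far to the right with 16 untreated and 9 etoposide peaks, and TGFB3, GDF15 and TGFBR1 have 1 untreated peak each.

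The density of peaks around the 10 genes was 31.2 untreated and 21.7 etoposide peaks per Mb of window. Over the windows of all protein-coding genes, which overlap and count some peaks several times, it was 14.2 and 10.03. Without SMAD3 the other genes had 24.1 and 18.4 per Mb. The median number per gene was 3.5 untreated and 3 etoposide peaks, against 2 and 1 over all genes. Peaks near the 10 genes were of middling rank in both lists, at a median of 45.7% of the way down the untreated list and 53.7% down the etoposide list, and 5 peaks of each list were among its strongest 10%.

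Of the untreated peaks near the 10 genes 22 of 46 were shared, 47.8% (95% Wilson interval 34.1% to 61.9%), and over the whole list the share was 51%. Of the etoposide peaks 23 of 32 were shared, 71.9% (54.6% to 84.4%), and over the whole list 64.8%. Both intervals include the value of the whole list, but they treat peaks as independent draws. Peaks of the same gene need not be independent, and 16 of the 46 untreated peaks were of SMAD3. The intervals are thus no test of a difference. Had the peaks been shared at the rate of all peaks of like strength, with each list divided into 10 parts of equal size, 24.96 untreated and 20.97 etoposide peaks would have been. Peaks without counterpart were the weaker ones, with a median of 17 fragments in the untreated library against 23.5 for shared peaks, and of 10 against 15 in the etoposide library. A peak missing from a list may be signal below the caller's threshold and does not show that JUNB was absent.

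**Figure D4:**
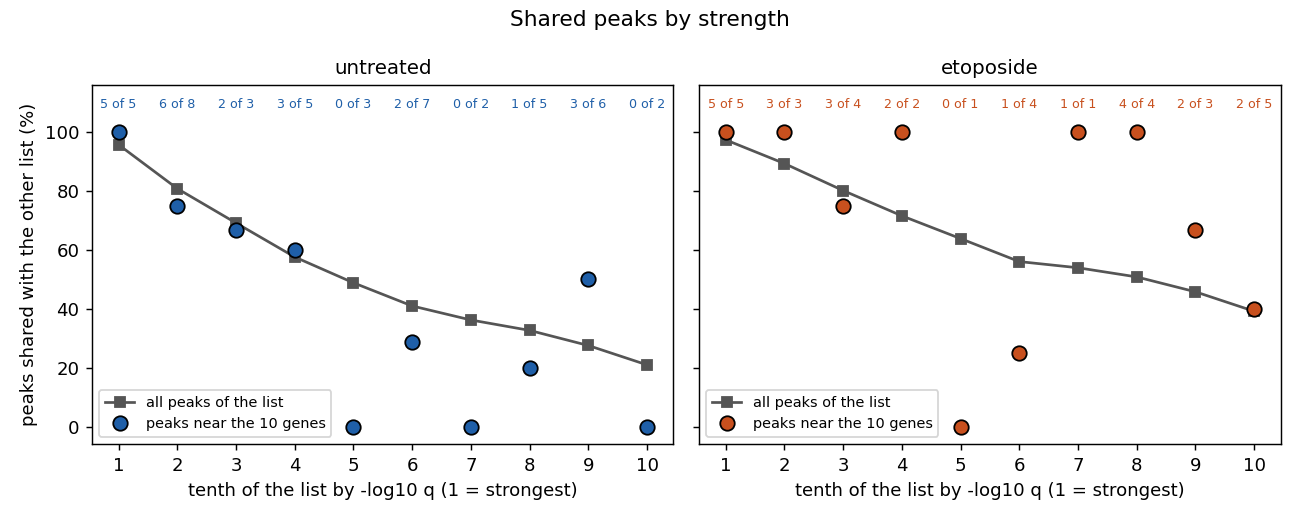
Share of peaks with a counterpart in the other list (vertical, percent) over 10 parts of the list of equal size from the strongest to the weakest by -log10 q (horizontal), for all peaks (grey squares) and for peaks near the 10 genes (coloured points, with their numbers above), untreated on the left and etoposide on the right. All 5 of the strongest untreated and all 5 of the strongest etoposide peaks near the 10 genes were shared, and below that each point rests on 8 peaks or fewer.

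The window edge decided some of these numbers. The peaks just inside 50 kb were the untreated FST peak at 48.7 kb with 13 fragments and the etoposide INHBA peak at 47.7 kb with 13. Just outside were an etoposide TGFB2 peak at 52.3 kb with 22 fragments and an untreated TGFBR2 peak at 52.3 kb with 14.

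A further 54 genes of TGF-beta, activin and BMP signalling, in 6 lists, were counted in the same way. Of these, 47 had an untreated peak within 50 kb (72% of all genes), 44 an etoposide peak (62.6%) and 38 a shared peak (51.1%). Untreated peaks were more numerous at 31 of them (45.6% of all genes), etoposide peaks at 8 (12.9%), and the numbers were equal at 15. The density was 22.6 untreated and 16.4 etoposide peaks per Mb, between that of the 10 genes and that of all genes. At their starts, 4 of the 54 had an untreated summit within 1 kb and 2 an etoposide summit. Of all genes with a listed start, 17.5% and 6.61% did. The 54 were counted whether or not they had a listed start, so the shares are not strictly alike.

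The list of latency and activation genes, whose proteins store TGF-beta in the matrix or release it, had peaks of both libraries at all 7 genes. LTBP1, a latent TGF-beta binding protein, had 20 untreated and 12 etoposide peaks, and FBN1, the fibrillin that anchors the latent complex, had 17 and 15. Both have long windows. The list held 35.9 untreated and 22.2 etoposide peaks per Mb. The 11 target genes also had peaks of both libraries and a shared peak at every gene, at 34.8 and 24.5 per Mb. ACTA2, the smooth muscle actin of myofibroblasts, had 7 and 3 peaks, CCN2, a matricellular growth factor, had 7 and 4, and TGFBI, a matrix protein, had 7 and 8.

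The receptors outside the 10 genes had peaks of both libraries at 7 of 8 genes. TGFBR3, the co-receptor betaglycan, had 12 untreated and 8 etoposide peaks, and ACVR1, a type I receptor for BMPs and activins, had 10 and 9. Of the 9 inhibitors, 8 had an untreated and 7 an etoposide peak. SMURF2, a ubiquitin ligase that marks the receptors for breakdown, had 8 and 9, and BAMBI, a decoy receptor, had 2 untreated peaks alone. Of the 10 other ligands, 7 had an untreated peak and 6 had one from etoposide. BMP6 led them with 5 and 6, and INHBB, another activin subunit gene, had 2 untreated peaks alone.

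The other SMADs and their nuclear partners had the lowest density, 9.15 untreated and 7.84 etoposide peaks per Mb, and a shared peak at 3 of 9 genes. SMAD6, an inhibitory SMAD, had 3 peaks in each library, and SMAD4, the common partner, and SKIL, a corepressor, had 3 and 2. TGIF1, another corepressor, had 1 and 3. SKI had 2 untreated peaks and SMAD9 had 1, with none in the etoposide list, and SMAD2 had 1 etoposide peak and none in the untreated list. SMAD3, with 16 and 9, had more peaks in either library than any of these 9 genes.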

How the data were processed

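JUNB CUT&RUN peaks of IMR-90 cells were analysed from the authors' 2 deposited lists in narrowPeak layout, 1 per library (33491 untreated and 26590 etoposide peaks). Bowtie2, MACS2, hg38 and mm10 are named without versions or roles in the submitters' processing notes. The peak coordinates were taken to be hg38 because the cells are human; this is an assumption that every gene assignment and distance rests on. No control library was used here. Each list gives, per the layout and the values deposited, the fold (a ratio of summit signal to local background), the -log10 p and -log10 q, a score and the summit position. The deposited score lay within 1 of 10 times -log10 q for 100% of peaks. Fold and significance are the authors' own. Ranks by -log10 q were taken within each list, and the fragments compared between lists were solved from fold and -log10 p.

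Peaks on chromosomes 1 to 22 and X were kept. Depth is unknown from peak lists. The fragments stacked at a summit, k, and the background, b, were solved from fold = (k + 1)/(b + 1) and the Poisson upper tail p, and a whole k met the deposited -log10 p within 0.001 for 100% of peaks. The solver was tested on simulated data and returned 100% of 2000 pileups. Medians were 15 untreated and 13 etoposide fragments. Intervals cover counting error only. For a peak that overlapped several, the largest overlap gave the pair. The peak threshold lay at a -log10 q of 2.03 and 2.00.

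Gene spans were those of 19974 RefSeq genes of GRCh38.p14, and starts came from the RefSeq promoter table. Exons and introns were not used here. Genes, lists and comparisons were chosen with earlier results of these data known. Named among the other pathway genes were those with the most peaks of either library in each list and those with peaks in 1 library alone. The nearest protein-coding gene was taken for each summit. Python 3.11.15, NumPy 2.4.6, pandas 2.3.3, SciPy 1.17.1 and Matplotlib 3.10.9 were used. Alternatives were the windows of 10 and 100 kb, a -log10 q of at least 5, the 10000 strongest peaks and an overlap of 50% of both peaks. The start window of 3 kb, the set without SMAD3 and all alternatives for start counts and fragment ratios were added after seeing the data.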

Additional observations from a re-analysis of the deposited data

How the results depend on the processing

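No paired analysis was possible because each condition had 1 library. Numbers of peaks near the 10 genes followed the window and the threshold: 27 untreated and 15 etoposide peaks within 10 kb, 76 and 54 within 100 kb, 18 and 14 among the 10000 strongest peaks of each list, and 30 untreated peaks without SMAD3. Among the 10000 strongest, the shared shares were 66.7% and 85.7%, and 2 genes had an untreated summit within 1 kb of a start. The other 31 values for the set, among them the median fragment ratio under each alternative run for it, stayed within their counting interval, their quartiles or 1.5 times. The untreated library had the higher number of peaks, and the etoposide list the higher shared share, under each alternative run for them. Of the 80 alternative values for numbers of peaks at single genes, 43 moved by over 1.5 times. Peak lists do not give depth, and its effect on which weak peaks were listed, and on fragment numbers and ratios, was not tested.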
